A study of Homo sapiens with 9 samples.

Results

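The 10 genes described here are the transcription factors of AP-1 and their immediate early companions: JUN, JUNB and JUND, FOS, FOSB, FOSL1 and FOSL2, EGR1, IER2 and IER3. They were taken by gene name from a table of 37118 genes, and each name matched 1 row. The table was made from A375, an established human melanoma line with an activating BRAF mutation, labelled wild type and given metformin, a biguanide used against type 2 diabetes. The 9 libraries fall into 3 groups of 3, at 0, 20 and 40 mM metformin. The length of treatment is not stated in the labels, and the labels do not state whether the 3 libraries of a dose stem from separate cultures. The p-values below therefore cover only how far these libraries differ among themselves, and that spread may be purely technical.

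AP-1 is a dimer of basic leucine zipper proteins. JUN proteins can pair with each other or with FOS proteins, whereas FOS proteins need a JUN partner to bind DNA. Several of their genes belong to the immediate early class, which is transcribed within minutes of a growth signal or stress without new protein synthesis. The short-lived messages of that class often carry AU-rich elements. In melanoma with mutant BRAF, signalling through ERK keeps several AP-1 genes active, FOSL1 (FRA-1) among them. EGR1 is a zinc finger factor of the same early wave, IER2 is a nuclear early-response protein, and IER3 is an early-response protein that modulates cell survival and ERK signalling.

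Levels are given as FPKM, fragments scaled to transcript length and library size, which allows different genes to be set side by side. Changes are log2 fold changes ± SE from edgeR's quasi-likelihood test on the read counts, with 3 libraries per dose. The SE was derived as the size of the log2 change divided by the square root of the test's F statistic. The test covered the 12394 genes with a mean of at least 1 FPKM, and a gene was called, or is said to have risen or fallen, at a Benjamini-Hochberg adjusted p under 0.05 over all of them. All 10 genes passed that filter. FOS passed it only through the 40 mM group, since its mean over the other 6 libraries was 0.987 FPKM.

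Library totals ran from 65738242 to 75629413 counts. Replicate 3 at 40 mM stood apart from the other libraries of its dose. It had the smallest total, the highest mitochondrial share of its dose (4.36% against 3.01% and 3.27%), and a score of -22.6 on the second principal component against 17.7 and 15.2. It was the highest of the 3 libraries at 40 mM for 7 of the 10 genes, the lowest for JUN and IER2, and the middle one for FOSL2. Of all tested genes, 38.1% were highest and 42.5% lowest in that library. The labelled cell type was checked on melanoma markers: SOX10 measured 70.7 to 113 FPKM and PRAME 29.3 to 36.9 FPKM. The pigment cell markers PMEL, MLANA, TYR and DCT stayed under 0.6 FPKM in every library.

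At 40 mM, 8 of the 10 genes rose against 0 mM and none fell, where 56.2% of all tested genes were called, 28.8% higher and 27.4% lower. JUN rose by 1.60 on the log2 scale and FOSL2 by 1.07, and FOSL1, already the most abundant of the 10, rose by 0.63. FOS and IER2 were not called. At 20 mM only FOSL1 and FOSL2 passed the test, both higher, where 31.6% of all tested genes were called, 16.3% higher and 15.2% lower. EGR1 did not follow the same course as the doses: its 3 libraries at 20 mM lay below those at 0 mM, and its level at 40 mM lay above both.

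**Figure D1:**
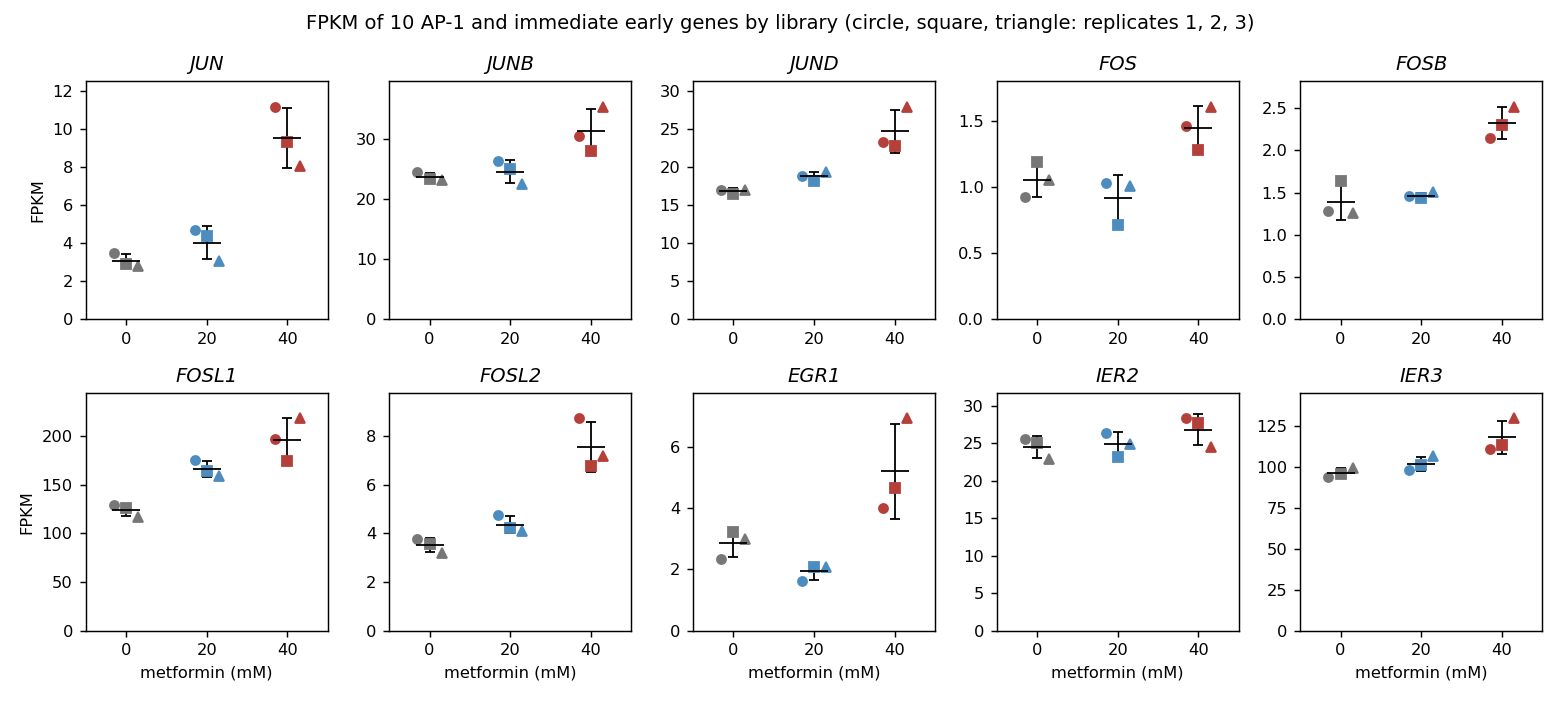
FPKM (vertical axes, linear, from 0) of each of the 10 genes against metformin dose in mM; points are single libraries (circle, square and triangle for replicates 1, 2 and 3), the wide line is the mean of 3 and the whiskers its SD. JUN and FOSL2 climb furthest at 40 mM, EGR1 has its lowest libraries at 20 mM, and the 3 groups of IER2 overlap.

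The order of the levels changed little with dose. At 0 mM FOSL1 came first with 124 FPKM and IER3 second with 96.2 FPKM. IER2 (24.5 FPKM) and JUNB (23.6 FPKM) followed with overlapping libraries, and JUND (16.8 FPKM) lay below both. FOSL2 (3.52 FPKM), JUN (3.07 FPKM) and EGR1 (2.85 FPKM) formed a lower group whose neighbours overlapped, and FOSB (1.39 FPKM) and FOS (1.06 FPKM) were the least abundant. At 20 mM the order of the means was the same, but the libraries of EGR1 (1.93 FPKM) no longer overlapped those of JUN (4.03 FPKM). At 40 mM JUNB stood before IER2 and JUN before FOSL2, in both cases with overlapping libraries.

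JUN (ENSG00000177606, chr1:58780791-58784047, minus strand) encodes c-Jun, the AP-1 subunit whose activity is raised by phosphorylation through JNK. Gene coordinates were read from the deposited table, and none of the sources used here names its genome build. JUN measured 3.51, 2.90 and 2.79 FPKM at 0 mM, 4.68, 4.37 and 3.04 FPKM at 20 mM, and 11.2, 9.33 and 8.05 FPKM at 40 mM. The 40 mM libraries lay above the other 6, while those of 0 and 20 mM overlapped. JUN rose by 1.60 ± 0.17 at 40 against 0 mM (adjusted p = 1.8e-05), the largest change among the 10 genes in that comparison, and by 1.21 ± 0.17 at 40 against 20 mM (adjusted p = 0.00061). At 20 against 0 mM the log2 change was 0.39 ± 0.17 (adjusted p = 0.0998). Without replicate 3 at 20 mM, the lowest library of that dose, it was 0.56 (adjusted p = 0.021).

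JUNB (ENSG00000171223, chr19:12791486-12793315, plus strand) encodes a JUN protein that can oppose c-Jun in growth control. It measured 24.4, 23.3 and 23.2 FPKM at 0 mM, 26.2, 24.9 and 22.5 FPKM at 20 mM, and 30.4, 28.0 and 35.4 FPKM at 40 mM. The 40 mM libraries were all above the others, and the 20 mM libraries spanned those at 0 mM. JUNB rose by 0.37 ± 0.08 at 40 against 0 mM (adjusted p = 0.0035), and by 0.32 ± 0.08 at 40 against 20 mM (adjusted p = 0.018; 0.074 without replicate 3 at 20 mM). At 20 against 0 mM it changed by 0.05 ± 0.09 (adjusted p = 0.69).

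JUND (ENSG00000130522, chr19:18279694-18281622, minus strand) encodes the JUN protein that many resting cells already make. It measured 17.0, 16.4 and 17.0 FPKM at 0 mM, 18.7, 18.2 and 19.4 FPKM at 20 mM, and 23.3, 22.8 and 27.9 FPKM at 40 mM. The 3 dose groups did not overlap. JUND rose by 0.52 ± 0.07 at 40 against 0 mM (adjusted p = 0.00015) and by 0.36 ± 0.07 at 40 against 20 mM (adjusted p = 0.0048). The difference of 0.16 ± 0.07 at 20 against 0 mM was not called (adjusted p = 0.13). It was called without replicate 3 at 40 mM, with an adjusted p of 0.017.

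Summed over the 3 JUN genes, the level was 43.5 ± 1.25 FPKM at 0 mM, 47.3 ± 2.40 FPKM at 20 mM and 65.4 ± 5.66 FPKM at 40 mM (mean ± SD, n = 3). JUN supplied 7.04 ± 0.692% of that sum at 0 mM, 8.47 ± 1.47% at 20 mM and 14.7 ± 3.07% at 40 mM. Its share in single libraries was at most 9.42% at 20 mM and at least 11.3% at 40 mM. JUNB supplied the largest share at every dose, with means of 54.3%, 51.8% and 47.7%. The share of JUND was 38.6%, 39.7% and 37.6%. The composition of the JUN transcripts thus differed at 40 mM mainly in the part held by JUN and JUNB.

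FOS (ENSG00000170345, chr14:75278826-75282230, plus strand) encodes c-Fos, the classical partner of c-Jun and a short-lived protein. It measured 0.923, 1.19 and 1.05 FPKM at 0 mM, 1.03, 0.715 and 1.01 FPKM at 20 mM, and 1.46, 1.28 and 1.61 FPKM at 40 mM. These values rest on 185 to 398 counts per library, the fewest of the 10 genes. The 40 mM libraries lay above the other 6, but the change of 0.42 ± 0.17 at 40 against 0 mM missed the threshold (adjusted p = 0.061, and 0.036 to 0.17 over the alternatives run). FOS rose by 0.62 ± 0.18 at 40 against 20 mM (adjusted p = 0.022). This call was lost without replicate 2 at 20 mM (adjusted p = 0.079), the lowest FOS library, and without replicate 1 or replicate 3 at 40 mM (0.053 and 0.051). At 20 against 0 mM the log2 change was -0.20 ± 0.18 (adjusted p = 0.41).

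FOSB (ENSG00000125740, chr19:45467995-45475179, plus strand) encodes a FOS protein known for its long-lived splice form in the brain. It measured 1.28, 1.64 and 1.26 FPKM at 0 mM, 1.45, 1.43 and 1.504 FPKM at 20 mM, and 2.15, 2.31 and 2.52 FPKM at 40 mM. The groups at 0 and 20 mM overlapped, and the 40 mM group lay above both. FOSB rose by 0.70 ± 0.12 at 40 against 0 mM (adjusted p = 0.00042) and by 0.64 ± 0.12 at 40 against 20 mM (adjusted p = 0.0028), against 0.07 ± 0.12 at 20 against 0 mM (adjusted p = 0.69). Its row overlaps that of ERCC1, a DNA repair gene on the opposite strand with a mean of 21.4 FPKM. None of the sources used here says whether counting took account of the strand, so the FOSB level is uncertain. ERCC1 itself differed by 0.04 ± 0.06 at 40 against 0 mM (adjusted p = 0.61).

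FOSL1 (ENSG00000175592, chr11:65892049-65900419, minus strand) encodes FRA-1, a FOS protein without the transactivation domain of c-Fos that is stabilised by ERK and is prominent in invasive tumour cells. It measured 129, 126 and 117 FPKM at 0 mM, 176, 164 and 159 FPKM at 20 mM, and 196, 174 and 218 FPKM at 40 mM. All treated libraries lay above the untreated ones, while those at 20 and 40 mM overlapped. FOSL1 rose by 0.42 ± 0.08 at 20 against 0 mM (adjusted p = 0.0024) and by 0.63 ± 0.08 at 40 against 0 mM (adjusted p = 5.5e-05). The difference between 40 and 20 mM was 0.21 ± 0.08 (adjusted p = 0.067). Without replicate 2 at 40 mM, the lowest of its dose, it was 0.29 (adjusted p = 0.013).

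FOSL2 (ENSG00000075426, chr2:28392448-28417312, plus strand) encodes FRA-2, the other FOS-related antigen. It measured 3.78, 3.56 and 3.20 FPKM at 0 mM, 4.75, 4.23 and 4.12 FPKM at 20 mM, and 8.74, 6.77 and 7.18 FPKM at 40 mM. The 3 groups did not overlap. FOSL2 rose by 1.07 ± 0.10 at 40 against 0 mM (adjusted p = 7.9e-06) and by 0.76 ± 0.10 at 40 against 20 mM (adjusted p = 0.00044). Its rise at 20 against 0 mM was 0.31 ± 0.10 (adjusted p = 0.038). That call was lost when any of 5 libraries was left out: replicate 2 (adjusted p = 0.091) or 3 (0.13) at 0 mM, or replicate 1 (0.13), 2 (0.069) or 3 (0.052) at 20 mM.

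The 4 FOS genes together measured 130 ± 6.67 FPKM at 0 mM, 173 ± 8.70 FPKM at 20 mM and 208 ± 22.6 FPKM at 40 mM. FOSL1 held 95.4%, 96.1% and 94.5% of that sum at the 3 doses. FOSL2 held 2.70% at 0 mM, 2.52% at 20 mM and 3.66 ± 0.530% at 40 mM. FOSB and FOS together were a minor part at every dose, at about 1% each or less: FOSB 1.07%, 0.847% and 1.13%, and FOS 0.814%, 0.530% and 0.698%. By transcript level, FOSL1 made up nearly all of the FOS family in these cells with and without metformin.

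**Figure D2:**
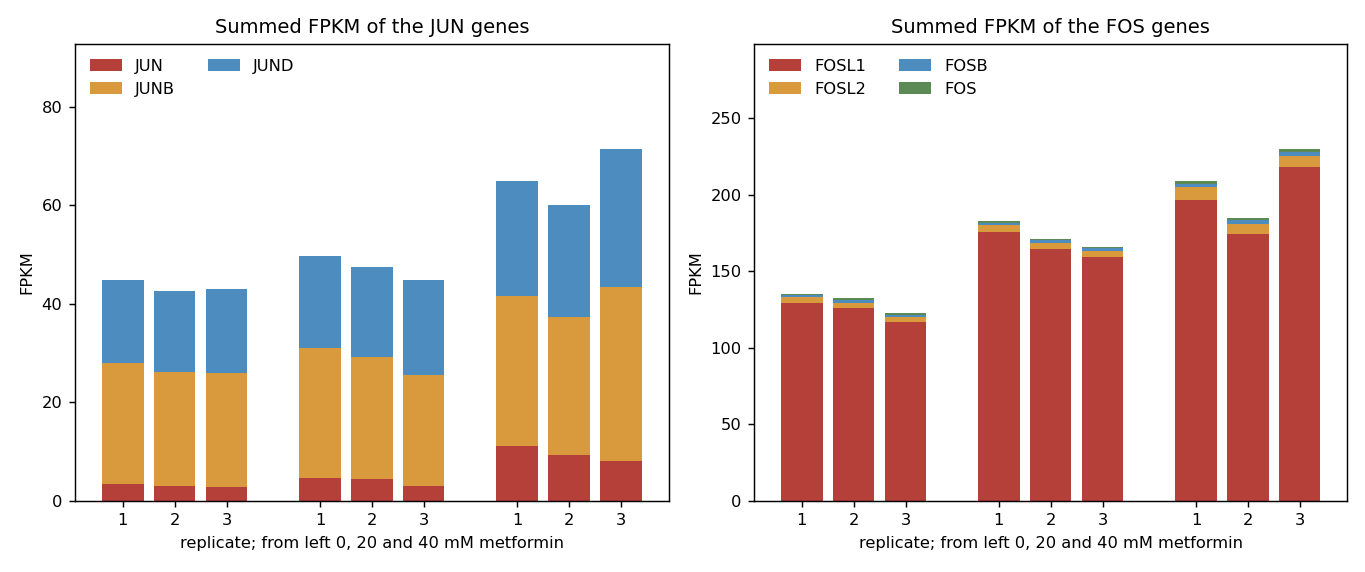
Stacked bars of FPKM per library (vertical axes, linear, from 0) for the 3 JUN genes on the left and the 4 FOS genes on the right, with replicates 1 to 3 at 0, 20 and 40 mM from left to right. JUNB and JUND make up most of the left bars and JUN widens at 40 mM, while FOSL1 fills nearly all of the right bars at each dose.

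EGR1 (ENSG00000120738, chr5:138465479-138469303, plus strand) measured 2.34, 3.23 and 2.99 FPKM at 0 mM, 1.63, 2.08 and 2.08 FPKM at 20 mM, and 4.002, 4.64 and 6.92 FPKM at 40 mM. The 3 groups did not overlap, and the order was 20 mM, 0 mM, 40 mM from low to high. EGR1 rose by 1.39 ± 0.20 at 40 against 20 mM (adjusted p = 0.00078), a 2.63-fold difference. It rose by 0.83 ± 0.20 at 40 against 0 mM (adjusted p = 0.0043). Replicate 3 at 40 mM was the highest EGR1 library, and without it this change was 0.56 (adjusted p = 0.0091). At 20 against 0 mM the log2 change of -0.56 ± 0.20 fell just short of the threshold (adjusted p = 0.052). It passed without replicate 1 at 0 mM (adjusted p = 0.042), replicate 1 at 40 mM (0.033) or replicate 3 at 40 mM (0.0092).

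IER2 (ENSG00000160888, chr19:13150411-13154911, plus strand) was the gene of the 10 with no call in any comparison. It measured 25.6, 25.0 and 22.9 FPKM at 0 mM, 26.4, 23.2 and 25.0 FPKM at 20 mM, and 28.3, 27.7 and 24.5 FPKM at 40 mM. The groups overlapped throughout. The changes were 0.02 ± 0.07 at 20 against 0 mM (adjusted p = 0.88), 0.10 ± 0.07 at 40 against 0 mM (0.26) and 0.08 ± 0.07 at 40 against 20 mM (0.41).

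IER3 (ENSG00000137331, chr6:30743199-30744548, minus strand) measured 93.8, 95.7 and 99.1 FPKM at 0 mM, 97.7, 101 and 106 FPKM at 20 mM, and 111, 113 and 130 FPKM at 40 mM. The 40 mM libraries lay above all others, and those at 0 and 20 mM overlapped. IER3 rose by 0.26 ± 0.06 at 40 against 0 mM (adjusted p = 0.0038), and the change was 0.08 ± 0.06 at 20 against 0 mM (adjusted p = 0.37). The rise of 0.18 ± 0.06 at 40 against 20 mM (adjusted p = 0.043) was 0.11 without replicate 3 at 40 mM (adjusted p = 0.077). It also lost its call when any 1 of the 6 libraries at 0 or 20 mM was left out.

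**Figure D3:**
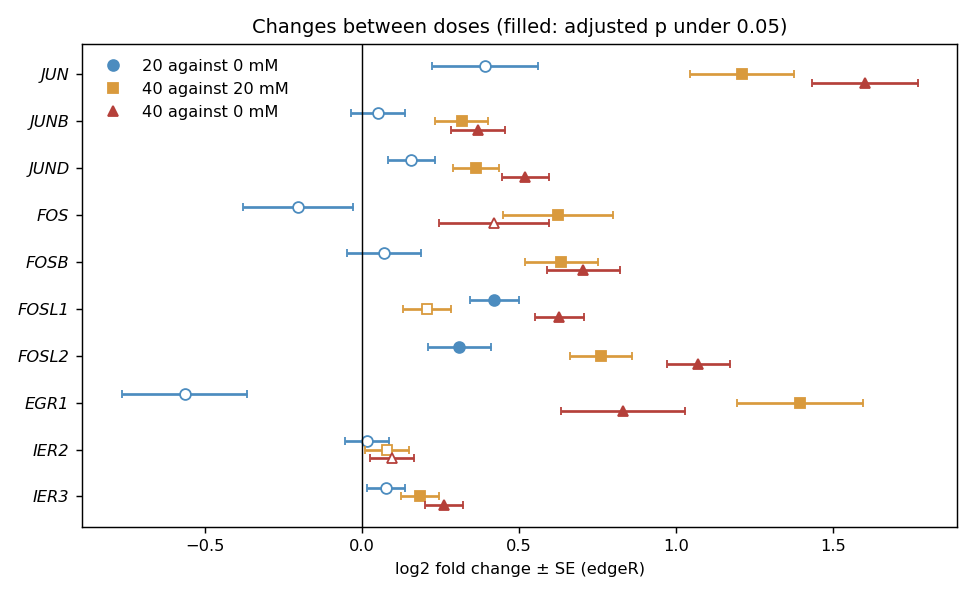
Log2 fold change ± SE from edgeR (horizontal axis) of the 10 genes in 3 comparisons: circles 20 against 0 mM, squares 40 against 20 mM, triangles 40 against 0 mM; filled symbols passed an adjusted p of 0.05. JUN, FOSL2 and EGR1 reach furthest to the right, and the circle of EGR1 lies at -0.56, left of 0.

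Counted over the 10 genes, 2 were called higher and none lower at 20 against 0 mM, with a median log2 change of 0.07. At 40 against 0 mM 8 were called higher and none lower, with a median of 0.57. Between 20 and 40 mM 8 were called higher and none lower, with a median of 0.49, where 29.3% of all tested genes were called, 14.3% higher and 15.1% lower. The median of all tested genes was under 0.001 in size in each comparison. Changes of at least 2-fold were found for JUN and FOSL2 at 40 against 0 mM, where 2.20% of tested genes were called that much higher, and for JUN and EGR1 at 40 against 20 mM (0.315% of tested genes). Libraries of the groups did not overlap for 9 genes at 40 against 0 mM, all higher (34.4% of tested genes), and for 8 at 40 against 20 mM, all higher (25.9%). At 20 against 0 mM 3 genes lay wholly above (25.6%) and EGR1 wholly below (24.9%). FOS passed the filter only through the 40 mM group and is no support for these counts. Over the other 9 genes, 8 were called and 8 did not overlap at 40 against 0 mM (median 0.63), and 7 were called and 7 did not overlap at 40 against 20 mM (median 0.36). The comparisons share their libraries, so the counts are not independent of each other.

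Since the EGR1 mean was lower than the untreated one at 20 mM and higher at 40 mM, the step from 20 to 40 mM was set against the step from 0 to 20 mM in 1 contrast, chosen after its values had been seen. Over all tested genes 6.83% were called in this contrast, 2.73% with the larger value in the upper step and 4.11% with the smaller. EGR1 was the 1 gene of the 10 called, with a difference between steps of 1.96 ± 0.36 (adjusted p = 0.011). Because EGR1's own values prompted the contrast, this call describes its course and is no separate support for it. Leaving out single libraries gave 1.69 to 2.12, and the call was lost without replicate 2 at 20 mM (adjusted p = 0.054) or replicate 3 at 20 mM (0.05002). For JUN the difference between steps was 0.82 ± 0.29 (adjusted p = 0.12), and for FOSL1 it was -0.21 ± 0.13 (adjusted p = 0.37). FOS, whose mean was also lowest at 20 mM, had 0.83 ± 0.31 (adjusted p = 0.14), but passed the filter only through the 40 mM group. Of 29 other immediate early genes tested, 5 were called with the larger value in the upper step and 3 with the smaller. Leaving out single libraries gave 1 to 7 of the former and 3 of the latter. JUN was called in this contrast by DESeq2 (adjusted p = 0.028) and with a replicate block (0.013).

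Promoter sequence was examined because 8 of these genes rose at 40 mM without sharing 1 dose course. The 250 bases before the start site were taken from RefSeq (GRCh38.p14), which matched 8 of the 10 genes; FOSL1 and IER3 were not matched. For 5 of the 8 the RefSeq start equals the 5′ end of the deposited row, and for FOSL2 it lies 410 bases inside that row. Both strands were searched for the CArG box bound by serum response factor, for the AP-1 site TGANTCA and for the TATA sequence TATAAA. The pattern TGANNTCA, longer by a free middle base, was searched too, and no match overlapped another. The promoters of JUN and FOSL2, which rose most at 40 mM, of EGR1, with its different dose course, and of IER2, which was not called, are printed 5′ to 3′ along the gene's strand, with matches in capitals.
JUN (chr1:58784048-58784297, minus strand): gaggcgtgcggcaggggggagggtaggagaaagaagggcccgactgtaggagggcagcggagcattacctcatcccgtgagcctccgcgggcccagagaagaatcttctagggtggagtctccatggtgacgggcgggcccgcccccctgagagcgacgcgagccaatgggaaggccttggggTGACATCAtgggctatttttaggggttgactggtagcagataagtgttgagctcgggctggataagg
FOSL2 (chr2:28392608-28392857, plus strand): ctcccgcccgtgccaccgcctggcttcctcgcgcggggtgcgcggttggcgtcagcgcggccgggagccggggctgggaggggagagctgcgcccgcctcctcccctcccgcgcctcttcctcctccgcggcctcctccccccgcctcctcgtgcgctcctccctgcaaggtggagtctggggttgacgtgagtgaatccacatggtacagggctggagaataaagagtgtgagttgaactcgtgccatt
EGR1 (chr5:138465229-138465478, plus strand): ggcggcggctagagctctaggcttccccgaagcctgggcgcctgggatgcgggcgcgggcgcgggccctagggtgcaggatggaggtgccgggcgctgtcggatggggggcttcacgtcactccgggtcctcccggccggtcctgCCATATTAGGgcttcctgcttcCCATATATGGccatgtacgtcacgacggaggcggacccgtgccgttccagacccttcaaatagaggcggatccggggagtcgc
IER2 (chr19:13150161-13150410, plus strand): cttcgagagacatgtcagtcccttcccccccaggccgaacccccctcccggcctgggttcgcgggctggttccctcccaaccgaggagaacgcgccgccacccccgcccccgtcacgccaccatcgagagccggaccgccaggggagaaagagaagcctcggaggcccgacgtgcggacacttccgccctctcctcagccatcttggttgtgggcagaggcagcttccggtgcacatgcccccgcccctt

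Within the windows searched, EGR1 was the only one of the 8 genes with a CArG box, and its window holds a pair of them. CCATATTAGG lies 105 to 96 bases before the start and CCATATATGG 83 to 74 bases before it. Of 35116 promoters in the same table, 1.16% hold at least 1 CArG box in this window. The pattern TGANNTCA was found in JUN (TGACATCA, 67 to 60 bases before the start) and in JUND (TGACGTCA, 200 to 193, and TGAGCTCA, 54 to 47), against 10.1% of all promoters. Any middle bases counted as a match, so the pattern is not particular to AP-1. TATAAA was found in JUNB, FOS and FOSB, starting 30 to 33 bases before the start, against 10.7%. The letters TGANTCA were in none of the 8 windows and in 6.57% of all promoters. The windows of FOSL2 and IER2 held none of the 4 motifs. A match describes letters and does not show binding. Sequence further upstream was not searched, so absence from a window does not show that a gene, FOS included, lacks a motif.

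The genes share a low number of exons, but not a short 3′ UTR. In GENCODE 29, on GRCh38, JUN, JUNB, JUND and IER2 have a single exon in the transcript chosen for each gene, EGR1 and IER3 have 2, and the 4 FOS genes have 4 each. Single-exon genes made up 4 of the 10 but 2.11% of 10578 tested genes with an annotated 3′ UTR, and all 10 had at most 4 exons, against 19.9%. The AU-rich core TATTTAT, on the transcript strand, occurred in the 3′ UTR of 7 of the 10, all but JUNB, EGR1 and IER2, against 32.9% of the same genes. The 3′ UTRs of the 10 ran from 500 bases (JUNB) to 4864 bases (FOSL2), with a median of 928 bases against 1093 bases. Windows of 27 bases around a TATTTAT (in capitals) are shown for a JUN gene, for the least and the most abundant FOS gene, and for IER3, which holds 4 copies in all.
JUN (chr1:58780820-58780846, minus strand): tgcttatgaaTATTTATaacagcattc
FOS (chr14:75282061-75282087, plus strand): gtttttaattTATTTATtaagatggat
FOSL1 (chr11:65892273-65892299, minus strand): gggcagctgcTATTTATtttcctaaag
IER3 (chr6:30743654-30743680, minus strand): tcctaattaaTATTTATatgTATTTAT

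Genes called at 40 against 0 mM stood on both sides of this feature. JUN, JUND, FOSB, FOSL1, FOSL2 and IER3 carry the core and rose, and JUNB and EGR1 lack it and also rose. Of those not called, FOS carries the core and IER2 does not. Whether the core bears on these changes was not tested.

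The leucine zipper proteins that pair with AP-1 or oppose it were taken next. Of 12 such genes 8 were tested, and 6 rose and none fell both at 20 and at 40 mM against 0 mM, with medians of 0.35 and 0.62. Of all tested genes 16.3% were called higher at 20 mM and 28.8% at 40 mM. Without JDP2, which passed the filter only through the 40 mM group, 5 of 7 rose at both doses, with medians of 0.34 and 0.51. The 20 mM call of MAFK (adjusted p = 0.040) was among these. It was lost without replicate 2 or 3 at 0 mM, any replicate at 20 mM or replicate 2 at 40 mM. ATF3, a stress-induced repressor and JUN partner, averaged 1.40, 3.55 and 6.51 FPKM at 0, 20 and 40 mM and rose by 2.17 ± 0.20 at 40 against 0 mM (adjusted p = 6.4e-06). JDP2, a repressor that binds JUN, averaged 0.486, 1.44 and 1.78 FPKM and rose by 1.84 ± 0.11 (adjusted p = 4.4e-07). MAFF, a small MAF protein, averaged 3.52, 5.39 and 7.48 FPKM and rose by 1.06 ± 0.07 (adjusted p = 1.0e-06). ATF3, JDP2 and MAFF were also called at 20 mM, with changes of 1.33, 1.56 and 0.61.

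Of 34 other immediate early genes 29 were tested. At 40 against 0 mM 17 rose and PLK2 fell, with a median of 0.40, beside 28.8% of all tested genes called higher and 27.4% lower; without replicate 1 at 20 mM, 2 fell. Between 0 and 20 mM 8 rose and 5 fell, beside 16.3% and 15.2% of all tested genes, so the falls were near the background share. Only 1 or 2 of them were called without replicate 1 or 2 at 0 mM or replicate 2 or 3 at 20 mM. Leaving out single libraries gave 15 to 17 rises at 40 mM and 6 to 9 at 20 mM. CCN1, a secreted matrix protein, averaged 11.9, 17.98 and 40.6 FPKM and rose by 1.74 ± 0.07 at 40 against 0 mM (adjusted p = 2.4e-08). PPP1R15A (GADD34), the stress-induced subunit that directs the phosphatase of eIF2alpha, averaged 32.2, 67.4 and 80.3 FPKM and rose by 1.28 ± 0.05 (adjusted p = 2.1e-08). KLF4, a zinc finger factor, averaged 7.26, 13.1 and 14.4 FPKM and rose by 0.95 ± 0.05 (adjusted p = 2.0e-07). PPP1R15A and KLF4 had most of their rise at 20 mM, by 1.06 and 0.85, whereas CCN1 gained 0.59 there and 1.14 between 20 and 40 mM.

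Kinases upstream of these factors were taken as a further list. Of 18 MAP kinase cascade genes at 40 against 0 mM, 4 rose and 8 fell, with a median of -0.07, beside 28.8% and 27.4% of all tested genes. Without replicate 3 at 0 mM or replicate 1 or 2 at 40 mM, 5 fell. BRAF averaged 1.31, 1.57 and 2.11 FPKM and rose by 0.65 ± 0.05 (adjusted p = 1.1e-06). MAP2K3, a kinase of p38, averaged 21.0, 22.5 and 28.9 FPKM and rose by 0.43 ± 0.06 (adjusted p = 9.7e-05). RPS6KA1, a kinase activated by ERK, fell from 16.2 to 13.9 FPKM, with a change of -0.26 ± 0.04 (adjusted p = 0.00021). Transcript levels of kinases do not give their activity.

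A list of 9 serum response genes held SRF, its partners, CREB1 and the coactivators CREBBP and EP300. Of the 9, 6 rose (CREBBP and EP300 among them) and 2 fell at 40 against 0 mM, with a median of 0.22. Of all tested genes 28.8% were called higher and 27.4% lower. Either or both falls were lost when any library but replicate 3 at 40 mM was left out. The number that rose was 4 to 6 with single libraries left out. SRF, the factor of the CArG box, averaged 10.4, 12.3 and 14.0 FPKM and rose by 0.40 ± 0.04 (adjusted p = 2.4e-05). Its ternary complex partner ELK4 averaged 4.70, 6.45 and 7.81 FPKM and rose by 0.70 ± 0.06 (adjusted p = 4.9e-06). ELK1 rose by 0.35 ± 0.07 (adjusted p = 0.0014). SRF and ELK4 were also called higher at 20 mM, by 0.24 and 0.45, the dose at which EGR1 had its lowest libraries.

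Of 8 genes for proteins that bind AU-rich messages 3 rose and 4 fell at 40 against 0 mM, with a median of -0.12. Of all tested genes 28.8% were called higher and 27.4% lower. Leaving out single libraries gave 3 to 4 falls. The fall of ZFP36L2 (-0.15 ± 0.06, adjusted p = 0.039) lost its call without any replicate at 0 mM, replicate 2 at 20 mM or replicate 1 or 2 at 40 mM. HNRNPD (AUF1) fell from 64.0 to 53.4 and 41.4 FPKM at 0, 20 and 40 mM, with a change of -0.66 ± 0.04 at 40 against 0 mM (adjusted p = 4.3e-07). KHSRP, which promotes decay of such messages, fell by 0.31 ± 0.04 (adjusted p = 0.00013). ZFP36L1, another decay factor, rose from 6.49 to 10.8 and 14.8 FPKM, with a change of 1.16 ± 0.09 (adjusted p = 2.1e-06).

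Among genes known as AP-1 targets, 15 of 24 passed the filter on low values. At 40 against 0 mM 10 of the 15 rose and 2 fell, with a median of 0.34, beside 28.8% and 27.4% of all tested genes. Between 0 and 20 mM 7 rose and 2 fell, with a median of 0.18, beside 16.3% and 15.2%. Of the falls at 20 mM, 1 was called without replicate 2 or 3 at 0 mM or any replicate at 20 mM. Leaving out single libraries gave 9 to 10 rises at 40 mM and 6 to 7 at 20 mM. MMP3, a matrix protease, measured 0.201, 0.158 and 0.159 FPKM at 0 mM, 0.733, 0.614 and 0.569 FPKM at 20 mM, and 4.69, 2.98 and 2.02 FPKM at 40 mM. It rose by 4.15 ± 0.31 at 40 against 0 mM (adjusted p = 1.7e-06). MMP3 and F3 passed the filter only through the 40 mM group, so their places in the count are not support. Without them, 8 of 13 rose at 40 mM, with a median of 0.23, and 6 of 13 at 20 mM, with a median of 0.08. PLAUR, the urokinase receptor, averaged 8.28, 11.5 and 16.5 FPKM and rose by 0.96 ± 0.06 (adjusted p = 6.2e-07). VIM, the intermediate filament vimentin, went the other way, from 471 to 347 and 264 FPKM, and fell by 0.87 ± 0.04 (adjusted p = 8.2e-08).

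**Figure D4:**
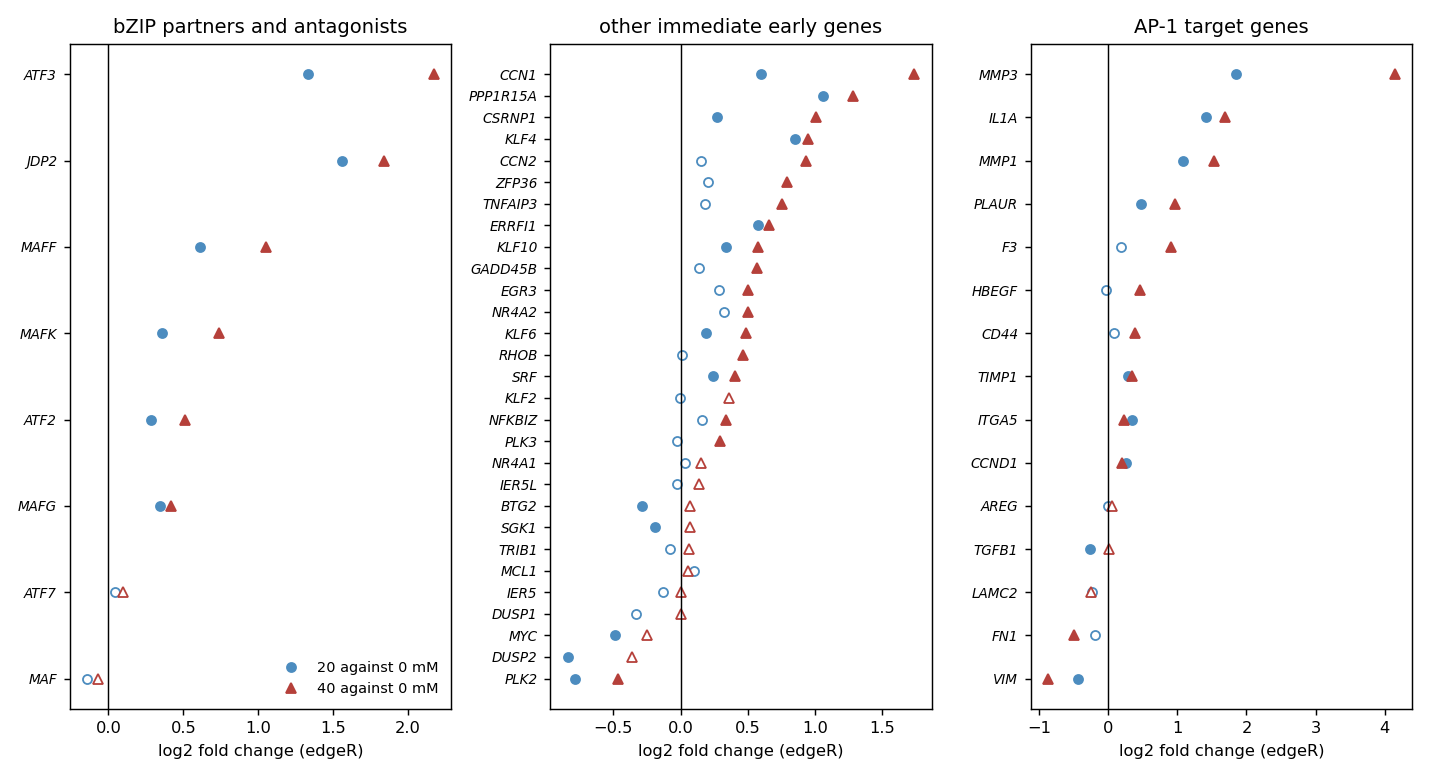
Log2 fold changes from edgeR (horizontal axes) of tested genes in 3 lists, with blue circles for 20 against 0 mM and red triangles for 40 against 0 mM; filled symbols passed an adjusted p of 0.05. ATF3 and JDP2 lie furthest right in the first panel, CCN1 and PPP1R15A in the second and MMP3 in the third, where VIM lies at -0.87 at 40 mM.

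Feedback genes linked to EGR1 and ERK included 9 tested of 10. At 40 against 0 mM 5 rose and 2 fell, with a median of 0.19, beside 28.8% and 27.4% of all tested genes. None or 1 of the falls was called without replicate 2 or 3 at 0 mM or replicate 1 or 2 at 40 mM. The genes that fell were SPRY2 (-0.18 ± 0.05, adjusted p = 0.012) and SPRY4 (-0.19 ± 0.06, adjusted p = 0.023). DUSP4 (-0.08, adjusted p = 0.063) and DUSP6 (-0.08, adjusted p = 0.28) were not called. DUSP5, a nuclear phosphatase of ERK, averaged 7.67, 13.3 and 22.0 FPKM and rose by 1.48 ± 0.14 (adjusted p = 9.9e-06). NAB1, a corepressor of EGR1, rose by 0.35 ± 0.05 (adjusted p = 0.00021). PHLDA1, an early gene of growth factor signalling, averaged 45.2, 55.7 and 52.6 FPKM, and rose by 0.30 at 20 mM and by 0.19 ± 0.04 at 40 mM (adjusted p = 0.0011).

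Markers of melanoma and of other cells were read beside these results. Of 10 melanoma and melanocyte markers 6 were tested, and at 40 against 0 mM none rose (1 without replicate 1 at 40 mM) while S100B (-0.80 ± 0.15, adjusted p = 0.00080) and MCAM (-0.25 ± 0.06, adjusted p = 0.0058) fell. Of 17 listed markers of other cell types 15 were in the table, and these summed to 15.6 to 16.4 FPKM at 0 mM, 21.0 to 24.7 FPKM at 20 mM and 29.1 to 36.2 FPKM at 40 mM. That sum was mostly CD68, KRT14 and LYZ. CD68, a lysosomal protein abundant in macrophages, averaged 3.90, 11.9 and 17.4 FPKM and rose by 2.12 ± 0.15 (adjusted p = 1.3e-06). LYZ (lysozyme) changed by 0.36 ± 0.14 (adjusted p = 0.049), with overlapping libraries and a call lost without any of 6 of the libraries. PTPRC, the pan-leukocyte marker, reached at most 0.0041 FPKM and CD3E, of T cells, at most 0.015 FPKM, and 6 of the 15 stayed under 0.1 FPKM in every library.

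For each of the 10 genes, tested genes outside the 10 with the most similar course over the 9 libraries were sought. The measure was Pearson's r of log2(FPKM + 1). All points share the same 9 libraries and depth, and r is given as a description. JUN lay closest to CTNNBL1 (r = 0.995) and CCN3 (0.993), and FOSL2 to IGFL1P1 (0.998) and ZNF841 (0.996). IGFL1P1 averaged 0.564, 1.025 and 4.295 FPKM at 0, 20 and 40 mM. It passed the filter only through the 40 mM group, so its likeness to FOSL2 is partly built in. JUNB lay closest to SH2B1 (0.988) and ZNRF2P2 (0.980), and JUND to ZER1 (0.989) and RBPMS (0.988). FOSL1 had UBE2E2 and CTSD (both 0.986), and IER3 had PEAK1 and RAB5A (both 0.984). EGR1, with its low point at 20 mM, lay closest to PPT2 (0.976) and JADE2 (0.968), which averaged 19.1 and 9.12 FPKM at 20 mM against 20.3 and 9.66 FPKM at 0 mM. FOS had RNF167 (0.968) and MYD88 (0.954), FOSB had RC3H1 (0.988) and PDGFRB (0.979), and IER2 had SAE1 (0.963) and CIRBP-AS1 (0.945). No 2 of the 10 genes shared a nearest gene among those outside the 10. The 10 were not set against each other.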

How the data were processed

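RNA of 9 A375 libraries was sequenced after oligo(dT) capture, with strand-marking dUTP, per the labels' protocols. The authors deposited 1 table with read counts and FPKM for each gene, per the file headers. The submitters' processing notes list StringTie 2.1.6 without a role. Aligner, genome build, annotation and the strand setting of the counts: not given in the sources used here. Counts were tested with edgeR 4.0.16 (limma 3.58.1, R 4.3.3): TMM scaling, a filter at a mean of 1 FPKM (12394 genes, 98.74% of counts), all 9 libraries in 1 fit, 6 residual degrees of freedom, Benjamini-Hochberg adjustment. The test was also run on simulated counts, with few changed genes, at 40 mM only, and no deviating library. These data differ in those respects, so that run does not show how the test performs on them. At totals of 65738242 to 75629413 counts, the SE gives the precision of each change. Alternatives were DESeq2 1.42.0, limma on log2(FPKM + 1) or log2(FPKM + 0.1), median-of-ratios size factors, no filter, a filter at 5 FPKM, the 6 libraries compared, a replicate block, and each library left out. The contrast between steps was chosen after seeing the data. The members and lists were chosen with earlier results of these data known. Named genes are the 10 and up to 3 called genes per list with the smallest p at 40 against 0 mM. The 2 nearest genes outside the 10 by r are named too. PLK2, F3, ERCC1, some markers and some further list genes were named after their values were seen. Motifs and windows came from RefSeq and GENCODE 29.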

Additional observations from a re-analysis of the deposited data

How the results depend on the processing

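Over the 3 dose comparisons, 501 values of single genes were obtained under the alternatives listed in the methods. Of these, 457 kept their direction and call, 23 lost the call, 17 gained it and 4 changed sign. JUNB at 20 against 0 mM was -0.00031 without replicate 1 at 20 mM, FOSB was -0.00039 without replicate 3 at 0 mM, and IER2 was -0.033 without replicate 3 at 0 mM and -0.031 without replicate 1 at 20 mM. In the contrast between steps IER2 was -0.034 without replicate 2 at 20 mM. With single libraries left out these ranged up to 0.11 (JUNB, without replicate 3 at 20 mM), 0.20 (FOSB, without replicate 2 at 0 mM), 0.065 (IER2, without replicate 2 at 20 mM) and 0.16 (IER2 between steps, without replicate 1 at 20 mM). None of these was called.

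The filter at 5 FPKM left fewer genes to test. It called 2517 genes at 20 against 0 mM (1324 higher, 1193 lower), 4245 at 40 against 0 mM (2168 higher, 2077 lower) and 2367 at 40 against 20 mM (1174 higher, 1193 lower), with 5 of the 10 AP-1 and early genes higher at 40 against 20 mM and 0 in the contrast between steps; edgeR with the filter at 1 FPKM called 3911, 6962 and 3637 genes. FOS, FOSB and EGR1 are not tested under it. With no filter 1 of the 10 was called higher at 20 against 0 mM and 5 at 40 against 20 mM, and the contrast between steps called 385 genes. Limma called 1 of the 10 higher at 20 against 0 mM with either pseudocount. DESeq2 and the fit of the 6 libraries compared each called 1 lower there, EGR1 (adjusted p = 0.010 and 0.014), and DESeq2 called 1444 genes and 3 of the 10 in the contrast between steps. The cause was not tested.

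With single libraries left out, the 10 genes gave 1 to 3 calls higher and 0 to 1 lower at 20 against 0 mM, 8 to 9 higher at 40 against 0 mM, 6 to 9 higher at 40 against 20 mM, and 0 to 1 between steps. Genes called ran from 2731 to 4966 at 20 against 0 mM, from 6049 to 7135 at 40 against 0 mM, from 2408 to 4065 at 40 against 20 mM (1142 to 1966 higher), and from 179 (without replicate 2 at 20 mM) to 1664 (without replicate 3 at 40 mM) between steps, against 847 with all libraries.

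Whether equal replicate numbers mark paired samples cannot be settled from the values below. Deviations from the group means of the 9 same-numbered pairs correlated at -0.10 to 0.19, 3 of them over 0.1, and 7 of 18 choices of the best match fell on the own number. The fit with the replicate block called 4245, 7215 and 3982 genes in the 3 comparisons, against 3911, 6962 and 3637 without it. In the contrast between steps, the SE with the block was 0.24 (EGR1), 0.15 (JUN), 0.10 (FOSL2) and 0.13 (FOSL1). Without the block these were 0.36, 0.29, 0.17 and 0.13. The block fit called 3 of the 10 higher and 1 lower (EGR1, adjusted p = 0.011) at 20 against 0 mM, and 3 between steps (EGR1, JUN and FOSL2). Scaling moved the median of all genes by at most 0.03 (log2). The lowest counts among the 10 genes were those of FOS, at 185 to 398 per library.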
